A study of Mus musculus with 4 samples.

Results

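The transforming growth factor beta (TGF-beta) genes described here are 3 ligands (Tgfb1, Tgfb2 and Tgfb3), 3 receptors (Tgfbr1, Tgfbr2 and Tgfbr3) and 4 SMAD proteins (Smad2, Smad3, Smad4 and Smad7). They were chosen by symbol, and all 10 were found among the 50600 genes of the deposited count tables. RNA-seq counts came from 4 libraries of 1 group: T helper 17 (Th17) cells, primary cells of C57BL/6NJ mice obtained by differentiation of CD4 T cells. In the labels these are biological replicates 1 to 4, with 1 donor entry for all; they give neither sex, age, developmental stage nor the cytokines of the culture. The labels describe the assay as total RNA-seq, while the library protocol they name is for polyA RNA. The file headers carry a time of 24 hours, which the labels do not repeat. There was no second condition to set beside the Th17 cells, so the values are levels and no change with treatment or differentiation can be read from them.

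TGF-beta is secreted as an inactive complex in which the mature dimer is held by its own propeptide, and it signals only once released. The free ligand binds the type II receptor TGFBR2, which recruits and phosphorylates the type I receptor TGFBR1. TGFBR1 then phosphorylates SMAD2 and SMAD3, which join SMAD4 and enter the nucleus, while SMAD7 blocks the receptor and is itself induced by the signal. In naive CD4 T cells TGF-beta alone favours regulatory T cells, and together with interleukin 6 it favours Th17 cells.

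Total counts ran from 19332509 to 48558772 in the 4 libraries. The genes that define the labelled cell type were present: all 8 T cell and Th17 markers lay above 1 TPM (a count divided by exon length and scaled to the same total in each library), from Il23r, a subunit of the interleukin 23 receptor, at 14.4 ± 2.70 TPM (SD, n = 4) to Cd5 at 1985 ± 36.1 TPM. The cytokine gene Il17f was called for variation between libraries (adjusted p = 0.0470, from the negative binomial deviance at the trended dispersion of edgeR), at 557, 391, 501 and 521 TPM in replicates 1 to 4. Il23r was likewise lowest in replicate 2 and was not called (unadjusted p = 0.0176 in the same edgeR-based test). Markers of other cells were scarce. The summed level of 5 platelet genes was 0.828 to 0.995 TPM, all of it Itga2b (mean 0.930 ± 0.0715 TPM), with no count of Gp1ba, Gp9, Pf4 or Ppbp. That of 7 stromal genes was 0.126 to 0.509 TPM, with Acta2 the highest at 0.112 ± 0.129 TPM and no count of Col1a2 or Col3a1. That of 5 B cell genes was 0.189 to 1.06 TPM, from Ms4a1 at 0.00777 ± 0.0155 TPM to Cd79b at 0.337 ± 0.198 TPM. That of 4 regulatory T cell genes was 1.41 to 1.79 TPM, from Lrrc32 at 0.0614 ± 0.0764 TPM to Ikzf2 at 0.757 ± 0.0820 TPM. Among 6 genes of macrophages and dendritic cells, Cd68 alone lay above 1 TPM, at 6.12 ± 0.885 TPM, and Csf1r and Lyz2 had no count. The libraries fell apart in sex-linked genes: the Y-linked gene Ddx3y gave 77.8, 58.9, 0.240 and 0.0925 TPM and Xist 0.916, 1.01, 154 and 152 TPM in replicates 1 to 4. By their TPM, Tgfb1 was lower, and Tgfb2, Smad2 and Smad7 were higher, in both replicates 1 and 2 than in both replicates 3 and 4, while the other 6 TGF-beta genes overlapped. Such a separation held for 34.8% of the 12849 genes tested for variation, and its part in the members' levels was not tested.

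Of the 10 TGF-beta genes, 8 lay above 1 TPM and 2 below it (edgeR quasi-likelihood F test, Benjamini-Hochberg adjusted over 21764 protein-coding genes). Over all protein-coding genes 45.9% lay above 1 TPM and 51.5% below. The median of the 10 was 23.9 TPM, beside 0.411 TPM over all protein-coding genes. Each of the 8 was above 1 TPM in every library, and DESeq2's Wald test, in which 43.8% of genes were above, made the same 8 calls. That test placed neither of the other 2 below 1 TPM, where it placed 5.44% of genes. It gives no p-value to genes without a count, which were 7704 of the 21764, so it could not place these. The p-values of the level tests rest on a dispersion shared with genes of like abundance. In DESeq2's test that abundance was in units of TPM rather than counts, and what this did to its calls was not tested. The labels, which call the libraries biological replicates, do not say which came from separate animals. The levels of Ddx3y and Xist set replicates 1 and 2 apart from 3 and 4, so the 4 did not all come from 1 animal. Within each of these pairs the spread may be technical.

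**Figure D1:**
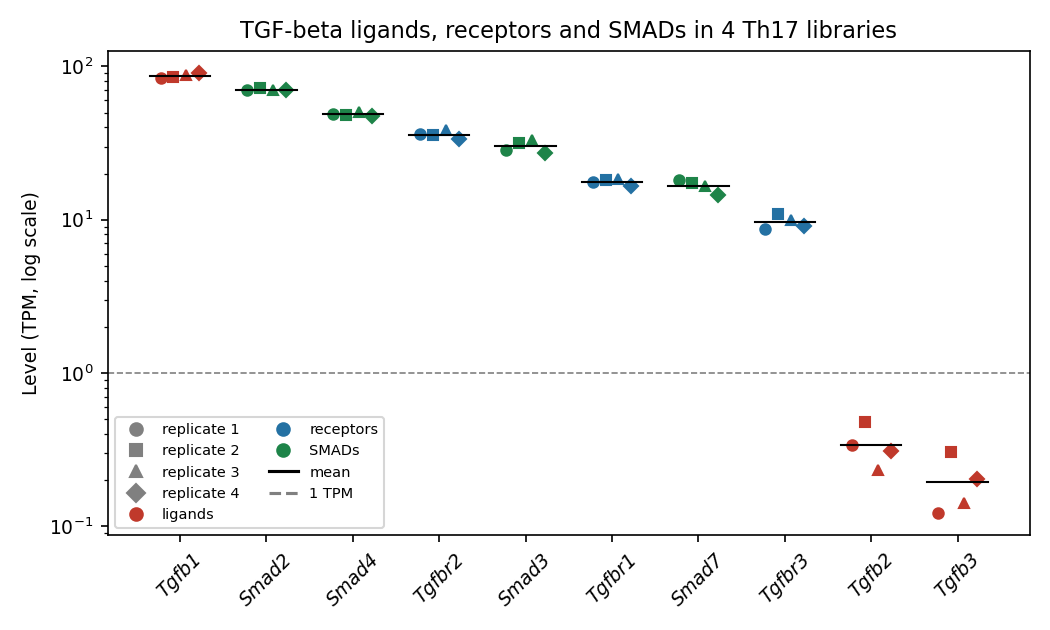
Level of each TGF-beta gene (TPM, log axis) in the 4 Th17 libraries, ordered by mean; symbols are libraries, colours are roles, black bars are means and the dashed line is 1 TPM. Of the 10 genes, 8 lie between 8.73 and 90.9 TPM in every library, and Tgfb2 and Tgfb3 lie below 0.5 TPM.

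Of the 3 ligand genes, Tgfb1 alone lay above 1 TPM. It codes for an isoform that immune cells are known to make, and lies on mm10 chromosome 7, 25687002 to 25705077 on the plus strand (ENSMUSG00000002603). It gave 84.6, 85.5, 87.7 and 90.9 TPM in replicates 1 to 4, a mean of 87.2 ± 2.80 TPM (SD, n = 4) from 18964 read pairs. The 4 libraries lay within 1.07-fold of each other, and 89.3% of protein-coding genes had a lower mean level.

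Tgfb2, the isoform best known from heart, eye and neural development (mm10 chromosome 1, 186622792 to 186705989, minus strand, ENSMUSG00000039239), gave 0.340, 0.477, 0.232 and 0.308 TPM. Its 80 read pairs over the 4 libraries placed it at 0.340 ± 0.102 TPM, below 1 TPM (edgeR adjusted p = 2.44e-08). Tgfb3, the isoform needed for palate fusion (mm10 chromosome 12, 86056744 to 86079041, minus strand, ENSMUSG00000021253), gave 0.121, 0.306, 0.142 and 0.203 TPM from 26 read pairs, a mean of 0.193 ± 0.0831 TPM, also below 1 TPM (edgeR adjusted p = 1.33e-06). Both calls were lost in DESeq2's Wald test (adjusted p = 0.278 for Tgfb2 and 0.206 for Tgfb3), and why the edgeR and DESeq2 calls differed was not tested. Replicate 2, the shallowest library, was the highest for both genes. In bulk RNA a low level in all cells and a higher level in few cells cannot be told apart. At these counts the counting error alone was 22.9% of the level per library for Tgfb2 and 40.5% for Tgfb3, beside a coefficient of variation between libraries of 30.2% and 43.0%.

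Tgfb1 therefore made up nearly all ligand transcripts: 99.5%, 99.1%, 99.6% and 99.4% of the summed TPM of the 3 genes in replicates 1 to 4, a mean of 99.4 ± 0.208%. Within a library it exceeded Tgfb2 by 7.66 ± 0.35 and Tgfb3 by 8.26 ± 0.39 on the log2(TPM + 0.1) scale, in 4 of 4 libraries each. The added 0.1 shrinks both differences: with 0.01 they were 8.01 and 8.83.

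The sequences just upstream of the start sites of Tgfb1 and Tgfb2 are shown because the levels of these 2 ligand genes stood far apart. Each window is the 250 bases before the RefSeq start (GRCm38.p6), 5′ to 3′ on the gene's strand, at chr7:25686752-25687001 for Tgfb1 and chr1:186705990-186706239 for Tgfb2. Capitals mark matches on either strand to the GC box GGGCGG, the core recognised by SP1, and to the TATA box TATAAA.
Tgfb1: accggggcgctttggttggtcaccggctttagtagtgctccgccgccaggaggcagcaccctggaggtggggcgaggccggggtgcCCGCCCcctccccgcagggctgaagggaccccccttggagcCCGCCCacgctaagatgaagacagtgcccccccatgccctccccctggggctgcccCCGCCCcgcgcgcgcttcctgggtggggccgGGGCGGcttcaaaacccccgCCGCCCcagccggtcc
Tgfb2: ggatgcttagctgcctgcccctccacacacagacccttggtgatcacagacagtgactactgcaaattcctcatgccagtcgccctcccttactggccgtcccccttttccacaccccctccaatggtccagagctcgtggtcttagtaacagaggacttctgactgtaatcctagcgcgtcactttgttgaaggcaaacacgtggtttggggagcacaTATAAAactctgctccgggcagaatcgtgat
The Tgfb1 window was 75.2% G and C with 21 CpG dinucleotides, held 5 GC boxes and had no TATAAA. The Tgfb2 window was 53.6% G and C with 8 CpG dinucleotides, held no GC box, and had 1 TATAAA that begins 31 bases before the start. Over all 32851 windows of the same length the medians were 52.4% G and C and 6 CpG, 32.7% held GGGCGG and 12.4% held TATAAA. The Tgfb2 window also held 1 E-box CACGTG and 2 matches to CAGAC, the short element that SMAD proteins bind, which occurred in 6.02% and 42.2% of all windows, and the Tgfb1 window held neither. These matches describe the letters only.

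All 3 receptor genes lay above 1 TPM, in the order Tgfbr2, Tgfbr1, Tgfbr3. Tgfbr2, the ligand-binding type II receptor kinase (mm10 chromosome 9, 116084293 to 116175360, minus strand, ENSMUSG00000032440), gave 36.0, 35.5, 38.5 and 33.6 TPM, a mean of 35.9 ± 2.01 TPM (SD, n = 4). Tgfbr1, the type I receptor kinase that phosphorylates the SMADs (mm10 chromosome 4, 47353222 to 47414931, plus strand, ENSMUSG00000007613), gave 17.7, 18.1, 18.4 and 16.6 TPM, a mean of 17.7 ± 0.788 TPM. The lowest library of Tgfbr2 was above the highest of Tgfbr1. Replicate 3 was the highest and replicate 4 the lowest for both, as they also were for Smad3 and Smad4.

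The ratio of Tgfbr2 to Tgfbr1 was nearly constant, at 2.04, 1.97, 2.09 and 2.03 in replicates 1 to 4, a mean of 2.03 ± 0.0513. Other pairs of members were nearly as steady. The SD of the difference on the log2(TPM + 0.1) scale was 0.036 for Tgfbr2 and Tgfbr1, 0.043 for Smad2 and Smad4, and 0.047 for Smad4 and Tgfbr2. Tgfbr3, also called betaglycan, is a co-receptor that presents ligand, and in particular the TGFB2 protein, to TGFBR2 (mm10 chromosome 5, 107106570 to 107289629, minus strand, ENSMUSG00000029287). It gave 8.73, 11.0, 9.93 and 9.08 TPM, a mean of 9.67 ± 0.993 TPM, and Tgfbr2 exceeded it by 1.89 ± 0.15 on the log2(TPM + 0.1) scale in 4 of 4 libraries. The co-receptor was thus present in the same libraries in which Tgfb2 stayed below 0.5 TPM.

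The upstream windows of the 2 kinase receptors are set out in the same way, since their proteins act as a pair. They lie at chr4:47352972-47353221 for Tgfbr1 and chr9:116175364-116175613 for Tgfbr2 (GRCm38.p6), with capitals for GGGCGG on either strand.
Tgfbr1: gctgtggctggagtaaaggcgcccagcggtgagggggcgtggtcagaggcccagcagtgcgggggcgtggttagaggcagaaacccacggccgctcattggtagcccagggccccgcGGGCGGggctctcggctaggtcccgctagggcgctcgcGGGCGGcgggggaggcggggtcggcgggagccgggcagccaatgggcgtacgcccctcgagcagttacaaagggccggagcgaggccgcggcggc
Tgfbr2: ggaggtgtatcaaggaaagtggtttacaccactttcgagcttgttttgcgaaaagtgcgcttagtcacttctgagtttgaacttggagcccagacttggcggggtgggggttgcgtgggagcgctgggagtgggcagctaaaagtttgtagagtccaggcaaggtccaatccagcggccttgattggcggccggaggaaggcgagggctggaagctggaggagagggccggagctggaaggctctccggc
The Tgfbr1 window was 74.8% G and C with 29 CpG dinucleotides and 2 GC boxes. The Tgfbr2 window, whose gene had the higher level, was 58.4% G and C with 12 CpG dinucleotides, no GC box and 1 CAGAC. Neither held TATAAA. The window of Smad3 (chromosome 9, 63757995 to 63758244) was 69.2% G and C with 22 CpG and 2 GC boxes. RefSeq lists a second Tgfbr1 start inside the gene, whose window (chromosome 4, 47385966 to 47386215) was 52.8% G and C with 3 CpG, no GC box and 1 CAGAC.

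Each of the 4 SMAD genes lay above 1 TPM, and Smad2 was the highest. SMAD2 is 1 of the 2 receptor-activated SMADs of this branch. Smad2 (mm10 chromosome 18, 76241580 to 76305731, plus strand, ENSMUSG00000024563) gave 70.6, 71.9, 70.1 and 69.7 TPM, a mean of 70.6 ± 0.951 TPM (SD, n = 4). Its libraries lay within 1.03-fold of each other, and its coefficient of variation of 1.35% was below the 2.01% that counting error alone gives per library. The annotation used for counting gives Smad2 3549 bases of exon, whereas GENCODE M21 gives it 8781, so reads in the added bases were not counted; lengths of the other members were the same in both to within 1 base.

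Smad3, the second receptor-activated SMAD and the one that binds DNA directly (mm10 chromosome 9, 63646767 to 63757994, minus strand, ENSMUSG00000032402), gave 28.6, 31.8, 33.3 and 27.1 TPM, a mean of 30.2 ± 2.82 TPM. Replicates 2 and 3 were the higher and replicates 1 and 4 the lower. Smad2 exceeded Smad3 by 1.23 ± 0.13 on the log2(TPM + 0.1) scale in 4 of 4 libraries, and was 71.2%, 69.4%, 67.8% and 72.0% of their summed TPM in replicates 1 to 4. Because Smad2 is counted over a shorter exon length than Smad3, the share depends on the division by length and was 60.0% of their summed CPM (counts scaled by library size alone).

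Smad4, the partner shared by all receptor-activated SMADs (mm10 chromosome 18, 73639009 to 73703780, minus strand, ENSMUSG00000024515), gave 49.1, 48.0, 50.2 and 47.5 TPM, a mean of 48.7 ± 1.21 TPM. It stood between Smad2 and Smad3 in every library, and its level was 0.484 ± 0.0142 of the sum of Smad2 and Smad3. Smad7, the inhibitor that recruits ubiquitin ligases to the receptor (mm10 chromosome 18, 75367529 to 75395935, plus strand, ENSMUSG00000025880), was the lowest of the 4 at 18.2, 17.2, 16.6 and 14.6 TPM, a mean of 16.7 ± 1.54 TPM. The difference of Smad7 minus Smad3 was -0.85 ± 0.15 on the log2(TPM + 0.1) scale, negative in 4 of 4 libraries.

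Smad4, Smad7 and Smad2 lie within 2.67 Mb of each other on chromosome 18, a feature the choice of genes did not use. Of the 20 protein-coding genes in that span, these 3 included, 14 were above 1 TPM and 6 below, beside 45.9% and 51.5% of all protein-coding genes. Smad3 has its own SMAD neighbour: Smad6, the inhibitor best known from bone morphogenetic protein (BMP) signalling, lies 195 kb away on chromosome 9 with 0 protein-coding genes between them. Smad6 gave 0.0768, 0.162, 0 and 0.107 TPM, a mean of 0.0864 ± 0.0675 TPM, below 1 TPM (edgeR adjusted p = 5.04e-08, not called by DESeq2's Wald test at an adjusted p of 0.156). Of the 2 inhibitory SMADs, Smad7 exceeded Smad6 by 6.57 ± 0.61 on the log2(TPM + 0.1) scale in 4 of 4 libraries.

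Ordered by mean level, the 10 genes ran Tgfb1, Smad2, Smad4, Tgfbr2, Smad3, Tgfbr1, Smad7, Tgfbr3, Tgfb2 and Tgfb3. Of the 9 pairs of neighbours, 7 had TPM ranges that did not overlap, and the smallest of these steps was Tgfbr2 over Smad3, at 0.25 ± 0.08 on the log2(TPM + 0.1) scale. Tgfbr1 and Smad7 could not be ordered: their difference was 0.09 ± 0.10, positive in 3 of 4 libraries, with Smad7 the higher in replicate 1. Tgfb2 was above Tgfb3 in 4 of 4 libraries by 0.60 ± 0.27, but the ranges of the genes overlapped and the counts were few. Smad4 was above Tgfbr2 by 0.44 ± 0.05 per length, while on the CPM scale, not divided by length, the order turned to -0.70.

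The 16 differences, counting 7 further pairs fixed by name, were tested within libraries with an exact two-sided sign-flip permutation test. Its smallest possible p over 4 libraries is 0.125, so none could pass 0.05. The 15 pairs with 1 sign in all 4 libraries had that p in the exact permutation test (0.133 adjusted over the 16), and Tgfbr1 against Smad7 had 0.25. The 9 neighbouring pairs were formed from the order of mean level in these same libraries. Their sign was thus favoured in advance, and its agreement over libraries is a description only.

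**Figure D2:**
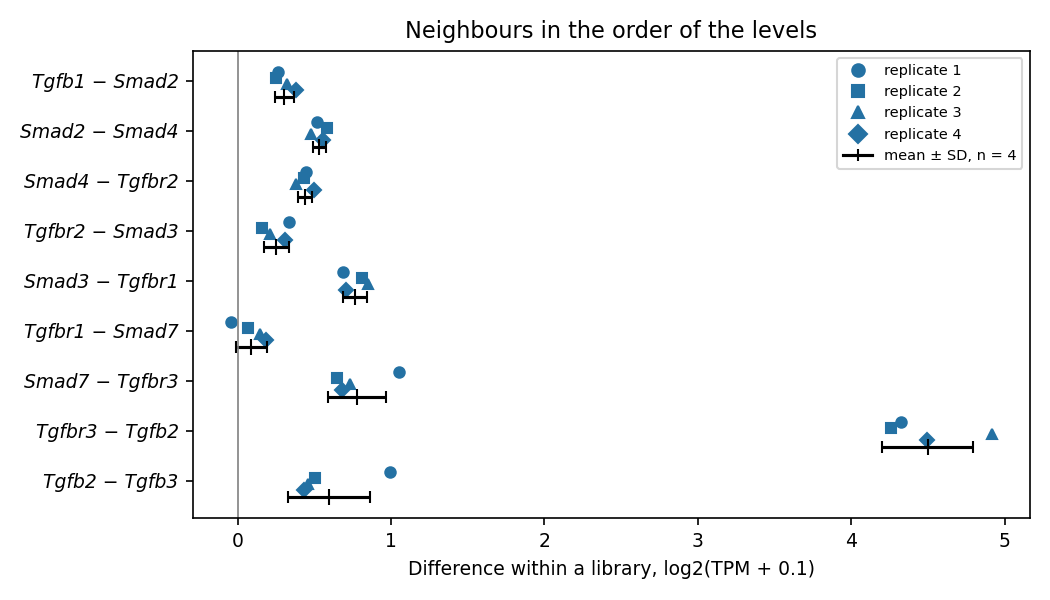
Difference between neighbouring genes in the order of mean level, taken within each Th17 library on the log2(TPM + 0.1) scale; symbols are libraries and black bars the mean ± SD (n = 4). Tgfbr1 and Smad7 straddle 0 with a mean of 0.09, and Tgfbr3 over Tgfb2 is the widest step at 4.50.

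Variation between libraries was set against that of genes of the same abundance. Of the 9 with a mean of at least 10 counts, 0 passed the test of their negative binomial deviance, taken at the trended dispersion of edgeR, by which 0.366% of 12849 genes were called. At an unadjusted p under 0.05 the count was also 0, beside 628 of the 12849 genes, so 0 of 9 does not set the members apart. The smallest unadjusted p of a member in this test, that of Smad3, was 0.0956. Tgfb3 fell under 10 counts and was not tested.

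The spread still differed among members. The SD over libraries of log2(CPM + 1) was 0.14 for Smad3 and 0.15 for Tgfbr3, where 95.0% and 92.0% of genes of like mean count had a smaller SD. It was 0.02 for Smad2 and 0.04 for Smad4, with 6.12% and 22.2% of such genes below them. Tgfb1 and Tgfbr1 sat near the middle, at 59.1% and 50.1%, and Tgfbr2 and Smad7 higher, at 81.7% and 80.1%. For some members the size of the SD rested on 1 library. The share of all tested genes for which it does so was not computed, so this does not set the members apart. Without replicate 4 the SD was 0.05 for Smad7 in place of 0.12, and 0.04 for Tgfbr1 in place of 0.07. Without replicate 3 it was 0.04 for Tgfbr2 in place of 0.08, and 0.01 for Smad4. Without replicate 2 it was 0.01 for Smad2, and 0.09 for Tgfb2 in place of 0.16. The SDs of Smad3, Tgfbr3 and Tgfb1 moved by less than 1.5 times when any library was left out.

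**Figure D3:**
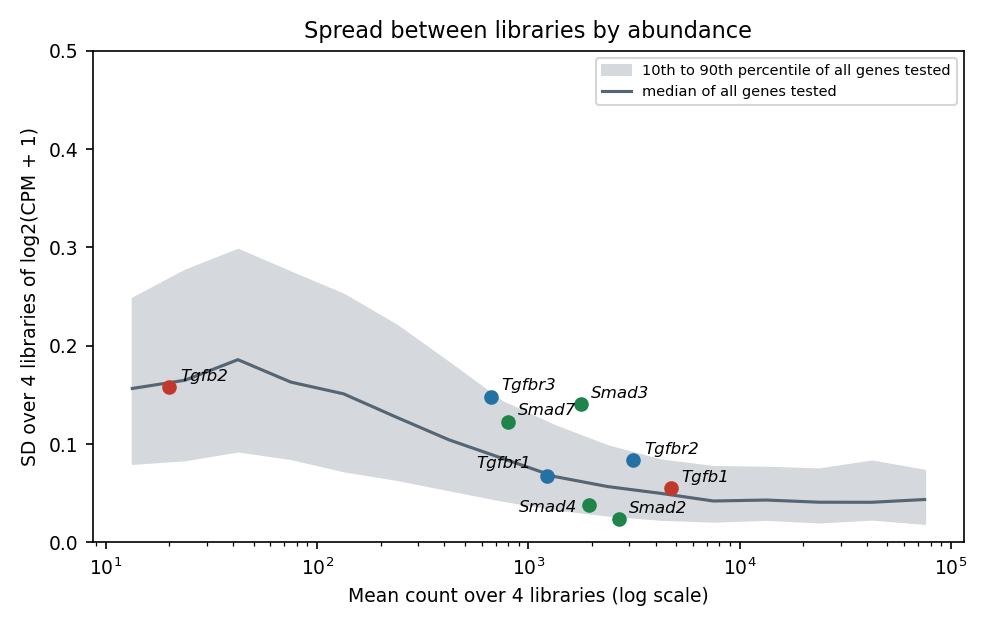
SD over the 4 libraries of log2(CPM + 1) against mean count (log axis) for 9 TGF-beta genes (points, coloured by role: ligands red, receptors blue, SMADs green), over the median (line) and the 10th to 90th percentile (band) of all 12849 genes tested. Smad3 at 0.14 and Tgfbr3 at 0.15 are above the 90th percentile of their own abundance range, and Smad2 at 0.02 is below the 10th.

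The other genes of the pathway were read from 8 lists beside the members. Among 30 other ligands of the family, 25 were below 1 TPM, 4 above and 1 uncalled, with a median of 0 TPM, and 18 had no count. Over all protein-coding genes 51.5% were below and 45.9% above, and 7704 of 21764 had no count. DESeq2 gives no p-value to genes without a count, so it could not call those 18. With DESeq2 the number below was 4, and with genes under a mean of 10 counts left out it was 0. Inhba, the subunit of activin A, was the highest at 41.8 ± 4.92 TPM (SD, n = 4), below Tgfb1 in every library. Its libraries gave 40.8, 36.9, 48.6 and 40.8 TPM, with replicate 3 the highest. Gdf11 followed at 18.9 ± 0.981 TPM and Bmp7 at 6.28 ± 0.651 TPM. No read pair fell on Bmp10, whose upper limit, set by 3 counts summed over libraries, was 0.0156 TPM. Gdf1, also without a count, shares all of its 50-base words with another gene, so its level is unknown, though it is among the 25 and the 18.

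Of 13 receptor genes of the other branches 7 were above 1 TPM, 5 below and 1 uncalled, with a median of 2.90 TPM; the share above is near the 45.9% of all protein-coding genes. With DESeq2 1 of them was below. Acvr1b, the type I receptor for activin, stood at 15.2 ± 0.806 TPM, and the co-receptor endoglin, Eng, at 10.6 ± 2.32 TPM. Acvrl1 was at 3.78 ± 0.511 TPM, and Bmpr1b had no count (up to 0.0117 TPM). Eng gave 8.58, 8.62, 12.5 and 12.8 TPM, higher in replicates 3 and 4, the libraries low in Ddx3y; its variation had an unadjusted p of 0.000653 and an edgeR adjusted p of 0.116, so it was not called.

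Among the other SMADs, Smad5 and Smad1, which carry BMP signals, lay above 1 TPM at 18.4 ± 1.54 and 10.7 ± 0.506 TPM, and Smad6 and Smad9 below, the latter with no count (up to 0.0130 TPM). Smad2 and Smad3 together made up 76.0%, 77.9%, 78.4% and 78.1% of the summed TPM of the 5 receptor-activated SMADs in replicates 1 to 4. The share was lowest in replicate 1 and moved to 67.3% when CPM was used in place of TPM.

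Of 14 genes that hold and release the latent ligand, 6 were above 1 TPM and 8 below, with a median of 0.236 TPM; these shares are near the 45.9% and 51.5% of all protein-coding genes. Furin, the protease that cleaves the TGF-beta propeptide, was the highest at 384 ± 6.92 TPM, followed by the integrin subunit Itgb1 at 184 ± 3.53 TPM. Nrros, which tethers latent TGF-beta on myeloid cells and microglia, was at 38.9 ± 1.59 TPM, whereas Lrrc32, the corresponding tether of activated regulatory T cells also known as GARP, was at 0.0614 ± 0.0764 TPM. Ltbp2 had no count (up to 0.00854 TPM). DESeq2's Wald test placed 5 of the 14 above and 3 below.

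Most intracellular partners were expressed. Over all protein-coding genes 45.9% lay above 1 TPM and 51.5% below. Of 13 SMAD cofactors and corepressors 10 were above 1 TPM, 2 below and 1 uncalled, with a median of 33.0 TPM. Ski, a corepressor of SMAD complexes, stood at 155 ± 2.55 TPM, Ncoa3 at 78.7 ± 2.90 TPM and Hgs, an endosomal adaptor, at 59.7 ± 2.77 TPM. Foxh1, a partner known from early embryos, was the lowest at 0.167 ± 0.102 TPM. Of 15 genes of receptor and SMAD turnover 14 were above and 1 uncalled, with a median of 33.9 TPM. Strap, a SMAD7-binding adaptor, was at 416 ± 23.9 TPM, Stub1 at 166 ± 2.33 TPM (uncertain, since other genes hold 33.7% of its words), the SMAD phosphatase gene Ppm1a at 103 ± 2.86 TPM and Usp11 the lowest at 1.12 ± 0.264 TPM. All 10 genes of the non-SMAD branch were above 1 TPM, with a median of 70.3 TPM: Tab2, a partner of the kinase TAK1, at 145 ± 4.96 TPM, Traf4 at 136 ± 4.28 TPM, Rhoa at 124 ± 0.164 TPM and Tab3 the lowest at 13.6 ± 0.888 TPM.

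Genes of a list of TGF-beta response genes stood at both ends. Of 12, 8 were above 1 TPM and 4 below, beside 45.9% and 51.5% of all protein-coding genes. Their median was 18.8 TPM, and 5 of the 12 (Ski, Skil, Tgif1, Pmepa1 and Ldlrad4) are also in the cofactor or turnover lists. Cdkn1a, a cell cycle inhibitor, was at 545 ± 43.4 TPM, Gadd45b at 377 ± 28.0 TPM and Ski at 155 ± 2.55 TPM, and Tgfbi was the lowest at 0.0379 ± 0.0308 TPM. With 1 condition these are levels, and whether TGF-beta moved any of them was not tested. In these 8 pathway lists 0 genes were called for variation between libraries, beside 0.366% of all genes tested. An unadjusted p under 0.05 was reached by 1 receptor gene and 1 turnover gene, beside 628 of all 12849 genes tested.

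**Figure D4:**
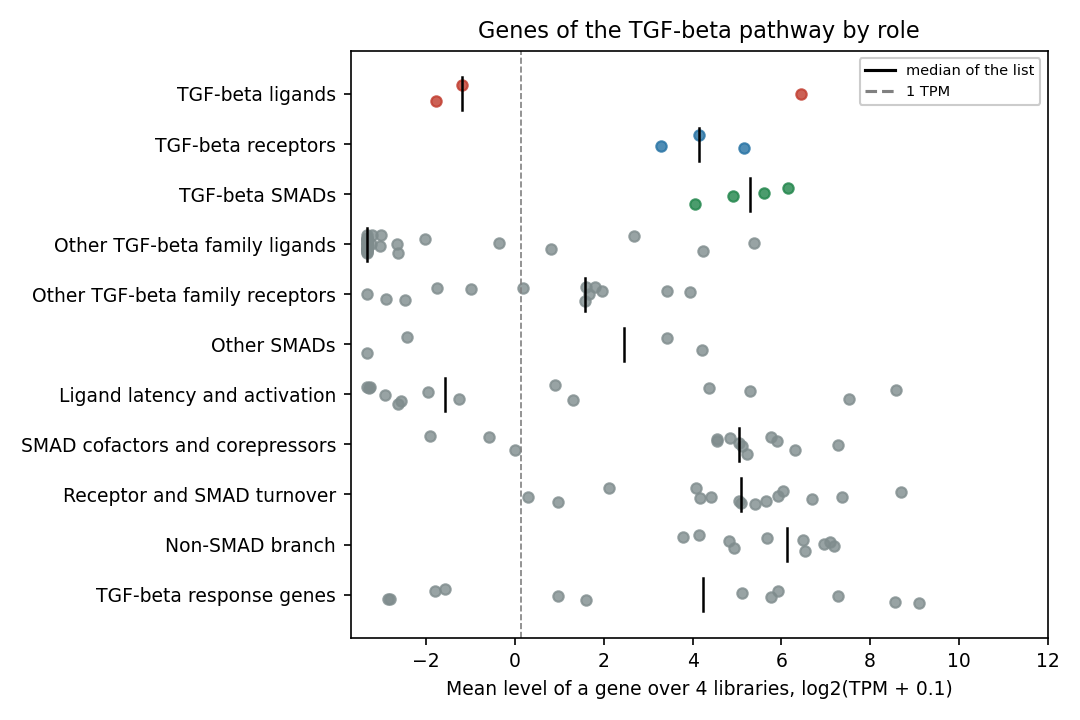
Mean level over 4 Th17 libraries, log2(TPM + 0.1), of each gene of the TGF-beta pathway by role; coloured points are the 10 members, grey points the genes of 8 other lists, black bars the median TPM of a list and the dashed line 1 TPM. The other family ligands have a median of 0 TPM, and the 10 non-SMAD genes all lie above 1 TPM.

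Sequence shared with other genes was measured for the members, since reads that map to several places were not counted. Of the 50-base words in a member's M21 transcripts, the share also found in a different gene was 0 for the 4 SMAD genes and at most 3.85% for the receptors, 0.476% for Tgfb1, 0.531% for Tgfb2 and 8.79% for Tgfb3. Exons of Tgfb2 and Tgfb3 overlap Gm29491 and Gm37804 on the opposite strand over 124 and 163 bases, which counting by strand keeps apart. Gm43422 overlaps Tgfbr3 on the same strand over 297 bases, 4.54% of its exon bases, and held 5 read pairs in all.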

How the data were processed

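Per the file headers, the authors deposited raw counts: read pairs that featureCounts 1.4.6-p4 assigned by strand (reverse) to exons of each gene in GENCODE M13 (mm10), if both mates had mapped. Pairs mapping to several places were left out. No source used here gives a version of the aligner. Symbols and gene types came from GENCODE M21 by Ensembl identifier (50376 of 50600 genes). Dividing these counts by exon length and scaling to a fixed sum per library gave TPM.

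The level against 1 TPM was tested with edgeR 4.0.16 (R 4.3.3), with the count that 1 TPM gives as offset and a two-sided quasi-likelihood F test on the intercept, Benjamini-Hochberg adjusted at 0.05. For spread between libraries, genes whose mean count reached 10 were tested after TMM normalization by the negative binomial deviance against chi-square, one-sided. DESeq2 1.42.0 was an alternative to the first. The edgeR tests of level and of spread were tested on simulated data, with the same dispersion for all genes in the former. DESeq2's test was not. Named genes are the 10 members, the pairs' genes, the 3 highest and the lowest of each other list, and the highest and lowest marker. Gdf1, Il17f, the sex-linked genes and the separation of libraries by them, further markers without a count and the genes in more than 1 list were named after their values were seen. The members and lists were chosen with earlier results of these data known. Promoter windows, from RefSeq (GRCm38.p6), were matched by symbol for 5 members and cut to 250 bases before the start. Counts per library, from 19332509 to 48558772, set the precision. Limits from 3 counts cover counting error only, and PCR copies of 1 molecule could not be told from separate molecules.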

Additional observations from a re-analysis of the deposited data

Results flagged for a closer look

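One library stood apart in 1 of 29 sets of 4 values examined (the members' levels, the differences between pairs and the shares of TPM), where chance sets about 1 in 20 apart. The difference of Tgfb2 minus Tgfb3 on the log2(TPM + 0.1) scale was 0.99 in replicate 1, beside 0.51, 0.46 and 0.43 in replicates 2 to 4, and the gap to the nearest of these was 0.864 of the whole range. Tgfb2 had 24 and Tgfb3 5 read pairs in replicate 1.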

How the results depend on the processing

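No paired analysis was possible because the libraries form 1 group. Of 458 values recomputed under the alternatives for 57 results, 437 were graded the same as the main value. For counts of genes in a list this grade allowed small changes, so single genes could change their call within it. With DESeq2, for example, the number of other ligands above 1 TPM was 3 in place of 4. That of latency genes above 1 TPM was 5 in place of 6. Both were graded the same. For a difference between members the grade asked only for the same sign, and for the level or spread of a gene only for the same call. Sizes could therefore move within it. Smad2 minus Smad3 was 0.59 on the CPM scale in place of 1.23, and Tgfb2 minus Tgfb3 was 0.17 with 1 added to TPM in place of 0.60. The number of members below 1 TPM, 2, was 0 with DESeq2 and 1 with genes under a mean of 10 counts left out: Tgfb2 then stood at -1.56 (DESeq2 adjusted p = 0.278) and Tgfb3 at -2.37 (DESeq2 adjusted p = 0.206) on the log2 scale. With DESeq2 and with that filter, the numbers of genes below were 4 and 0 for other ligands, 1 and 1 for other receptors, 0 and 0 for other SMADs, 3 and 1 for latency genes, 0 and 1 for cofactors, and 0 and 2 for response genes. Genes without a count could be called under neither, since DESeq2 gives them no p-value and the filter removes them. With a level of 0.5 TPM 1 cofactor was below, and with 2 TPM 1 turnover gene. On the CPM scale Smad4 minus Tgfbr2 turned to -0.70, Smad2 was 60.0% of Smad2 and Smad3, and these were 67.3% of the receptor-activated SMADs; this scale does not divide by exon length. Leaving out each library in turn changed no direction of a difference between members and no call of a member. Among the list counts, the number of cofactors below 1 TPM rose from 2 to 3 without replicate 3. The smallest adjusted p of a member for variation under any alternative was 0.675. Depth limits Tgfb2 and Tgfb3, with 80 and 26 read pairs in all.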
